A study of Mus musculus with 6 samples.

Results

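Mitochondrial biogenesis in muscle is controlled by a small set of nuclear regulators, and 10 of them were examined here by gene symbol: Ppargc1a, Ppargc1b, Esrra, Esrrg, Nrf1, Tfam, Ppara, Ppard, Perm1 and Nrip1. All 10 were found, once each, among the 54532 genes of the deposited count table, and all 10 were among the 14973 genes that passed the filter on low counts. RNA was sequenced from gastrocnemius, a calf muscle of mainly fast fibres, of 3-month-old C57BL/6J mice. The 3 libraries labelled transgenic came from mice with the genotype Mck cre; Tg Glut1-Hk2-Pfkfb3, and the 3 control libraries from mice with Mck cre alone. Mck is the muscle creatine kinase promoter, which drives the Cre recombinase in striated muscle. Mice of both groups therefore carried the Cre driver, and both were given 0.2% doxycycline in drinking water from 4 weeks of age.

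The coactivators PGC-1α (Ppargc1a) and PGC-1β (Ppargc1b) bind no DNA themselves and dock on transcription factors, among them the estrogen-related receptors, the PPARs and the nuclear respiratory factor NRF1. These factors switch on nuclear genes of the respiratory chain and of fatty acid oxidation, and they also switch on Tfam, whose protein packages and transcribes mitochondrial DNA. In muscle PGC-1α is known for its response to exercise and for its higher level in oxidative fibres. Perm1 is itself induced by PGC-1 and ERR, and Nrip1 encodes the corepressor RIP140, which opposes the same receptors.

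Library totals ran from 19546456 to 24665024 counts. The genes named in the transgene did not check the labels, since none of the 3 passed the test as higher, and Pfkfb3 averaged 379.5 ± 227 CPM in the libraries labelled transgenic and 1087 ± 503 CPM in controls (SD, n = 3 each). Whether transcripts of the transgene itself map to these mouse genes was not tested. Directions are therefore given between libraries as labelled. A pair of libraries stood apart. Control replicate 1 held 344 CPM of the 10 lymphocyte markers against 3.76 to 11.97 CPM in the other 5 libraries. Gapdh, a glycolytic gene, was at 16.7 CPM in control replicate 1 and 231 CPM in transgenic replicate 3, against 648 to 682 CPM in the other 4. Transgenic replicate 1 held 719 CPM of the 8 endothelial markers against 294 to 393 CPM in the other 5. The defining muscle markers were abundant in all 6 libraries, with a sum over 12 genes of 106199 to 126253 CPM in the libraries labelled transgenic and 103860 to 152650 CPM in controls. Because muscle is a mixed tissue, a change in the share of a cell type and a change of RNA per cell cannot be told apart in these values.

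Promoter windows are shown for the 3 members whose window held a motif of the circuit's own factors or, for Ppargc1a, the member with the largest difference between groups, of the factors known to induce it. Windows from RefSeq's GRCm38.p6 table were used for 9 of the 10 members, 14 windows in all. Capitals mark the motif, and the sequences run 5′ to 3′ on the strand of the gene.
Ppargc1a (chr5:51567727-51567975, minus strand): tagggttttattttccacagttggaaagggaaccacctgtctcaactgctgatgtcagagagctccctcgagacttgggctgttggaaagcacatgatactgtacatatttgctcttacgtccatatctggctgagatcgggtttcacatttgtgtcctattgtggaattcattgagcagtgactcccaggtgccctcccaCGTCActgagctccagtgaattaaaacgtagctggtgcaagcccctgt
Perm1 (chr4:156215677-156215867, plus strand): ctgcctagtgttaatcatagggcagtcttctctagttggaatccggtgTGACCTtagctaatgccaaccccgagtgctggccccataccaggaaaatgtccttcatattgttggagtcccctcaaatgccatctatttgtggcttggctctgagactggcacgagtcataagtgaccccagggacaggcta
Ppara (chr15:85735735-85735764, plus strand): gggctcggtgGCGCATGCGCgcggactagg
In Ppargc1a the capitals mark TGACG, the core of the cAMP response element, on the other strand, starting 49 bases before the RefSeq start of transcription. This core occurs in 17.7% of the 32817 windows of 250 bases before a start, on either strand. Among the 14 windows of the members it was in 2, those of Ppargc1a and Ppara. In Ppara it starts 222 bases before the RefSeq start, outside the stretch shown. The full element TGACGTCA, found in 1.55% of windows, was in none of the 14 windows of the members. In Perm1 the capitals mark AGGTCA, the core site that nuclear receptors of the ERR and PPAR families bind, on the other strand, which is in 14.0% of windows. The longer ERR element TNAAGGTCA, found in 1.14% of windows, was in none of the 14. In Ppara the capitals mark a match to the palindromic NRF1 element, found in 3.73% of windows. The match is to letters only, and the windows do not cover all starts: the 3 protein-coding transcripts of Ppargc1a in GENCODE M21 begin over a span of 13835 bases, and the deposited counts sum over all of them.

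None of the 10 regulators reached the threshold of 0.05 for the adjusted p in edgeR's quasi-likelihood fit, where 1.3% of all genes tested were called. At an unadjusted p under 0.05 there were 3 members, Ppargc1a, Ppargc1b and Esrrg, against 20.8% of all genes tested, and DESeq2 called 1 member, Ppargc1a, where it called 7.11% of genes. The log2 fold change was positive in 9 of 10 members, with a median of 0.37, beside 46.6% positive and a median of -0.03 over all genes tested. Without transgenic replicate 1 there were 8 positive members with a median of 0.21, and without both replicates 1 there were 7 with a median of 0.12. The values of the 2 groups did not overlap for 2 members, both higher in the libraries labelled transgenic, Ppargc1a and Ppargc1b. Over all genes tested 13.8% were higher without overlap and 27.4% lay apart in either direction, so the share among the members lies near that of all genes. Each member's values follow, in CPM, the counts scaled to a common library size by TMM.

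**Figure D1:**
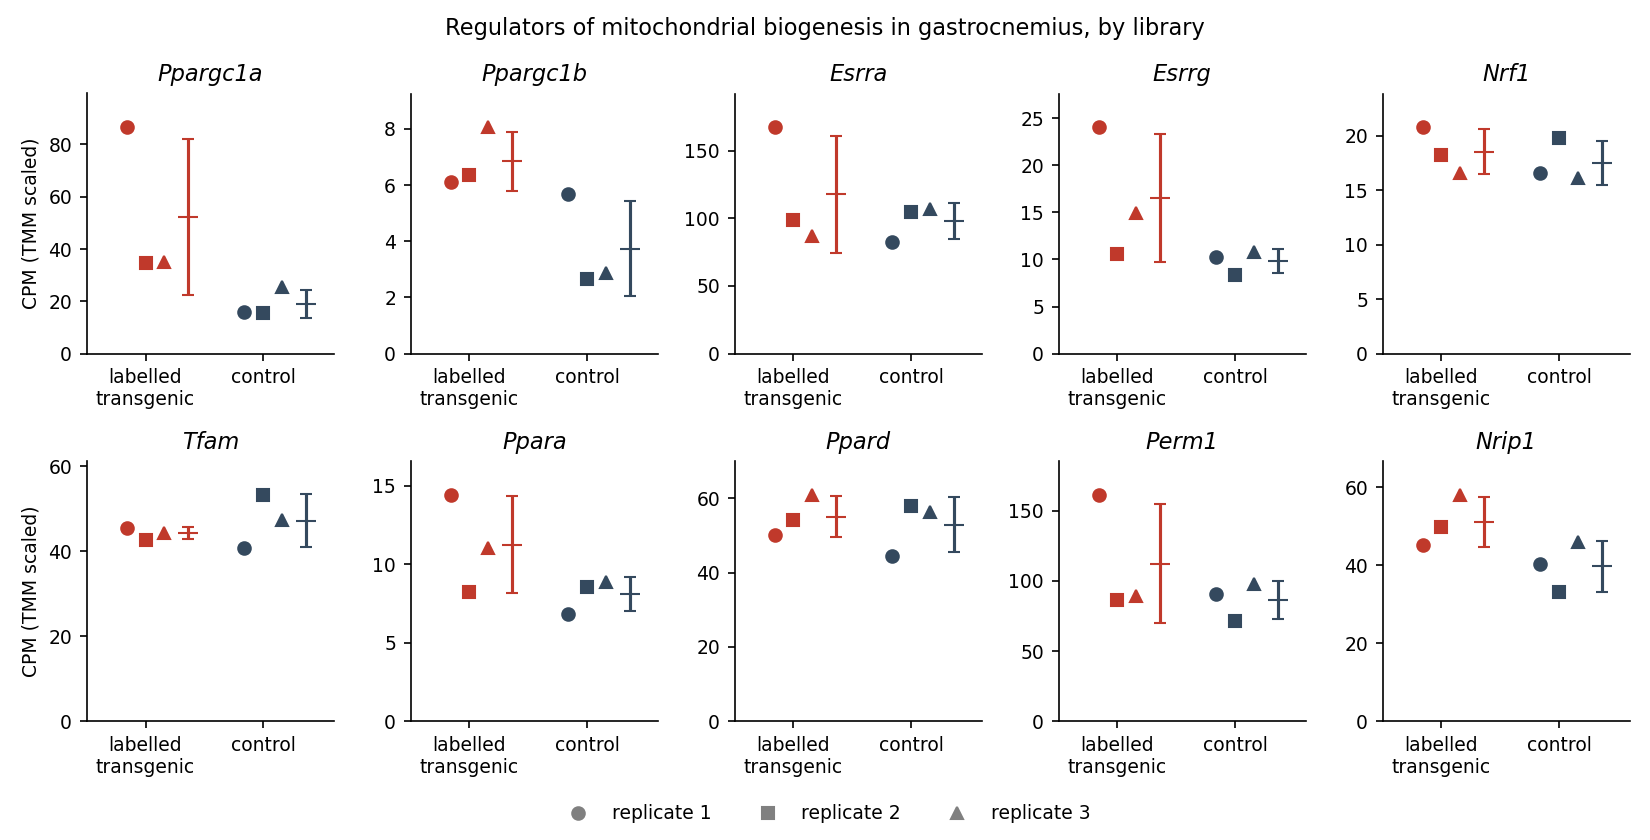
Each panel plots one regulator, with CPM per library on a linear axis from 0, libraries labelled transgenic in red left of control libraries in blue, marker shape giving the replicate number, and the bar giving the mean ± SD of 3 libraries. Ppargc1a, Esrra, Esrrg, Ppara and Perm1 are each highest in transgenic replicate 1, while the points of Ppargc1a and Ppargc1b do not overlap between groups.

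Ppargc1a (ENSMUSG00000029167, GRCm38 chromosome 5, 51454250 to 51567726, minus strand), the coactivator at the head of the circuit, had 86.5, 34.7 and 35.2 CPM in the libraries labelled transgenic, against 16.1, 15.5 and 25.4 CPM in controls. Every library labelled transgenic lay above every control library, and transgenic replicate 1 lay far above the other two of its group. The means were 52.1 ± 29.8 CPM and 19.0 ± 5.51 CPM (SD, n = 3 each). Its log2 fold change of 1.46 ± 0.39 (SE) had a 95% interval of 0.55 to 2.37 and, in edgeR, an adjusted p of 0.109. An exact permutation test of log2 CPM, two-sided, gave p = 0.1, and no lower p is possible with 3 libraries in each group. Without transgenic replicate 1 the log2 fold change was 0.89 (edgeR adjusted p = 0.170), and without control replicate 1 it was 1.35 (adjusted p = 0.0780). Endothelial markers moved with the highest library: all 8 had a positive log2 fold change, their sum was 367 to 719 CPM in the libraries labelled transgenic and 294 to 393 CPM in controls, and none was at 0. In transgenic replicates 2 and 3 the endothelial sums were 367 and 391 CPM, against 393, 294 and 340 CPM in control replicates 1, 2 and 3. The part of these markers in the Ppargc1a values was not tested.

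Ppargc1b (ENSMUSG00000033871, chromosome 18, 61298136 to 61400431, minus strand), the second coactivator of the family, had 6.12, 6.35 and 8.05 CPM in the libraries labelled transgenic, against 5.67, 2.65 and 2.86 CPM in controls. The groups did not overlap, but control replicate 1 lay close below the lowest library labelled transgenic. The means were 6.84 ± 1.06 CPM and 3.73 ± 1.69 CPM, and the counts behind them were 131 to 201 and 56 to 136. The log2 fold change was 0.87 ± 0.32 (95% interval 0.13 to 1.605, edgeR adjusted p = 0.185, exact permutation p = 0.1). Without control replicate 1 Ppargc1b passed, at 1.31 ± 0.21 (edgeR adjusted p = 0.0171), in a fit that called 6.08% of all genes as higher. Control replicate 1 was also high in markers of other cells. The 9 adipocyte markers summed to 709 to 1153 CPM in the libraries labelled transgenic and to 927, 411 and 497 CPM in control replicates 1, 2 and 3. The 6 macrophage markers summed to 144 to 215 CPM in the libraries labelled transgenic and to 219, 81.8 and 130 CPM in these controls. With all 6 libraries 4 of 8 adipocyte markers and 6 of 6 macrophage markers had a positive log2 fold change. In the fit without control replicate 1, in which Ppargc1b passed, 7 of 8 adipocyte markers were positive with a median of 0.98, and 2 passed as higher. The 6 macrophage markers were all positive there with a median of 0.74, and 1 passed. The adipocyte markers that passed there, both named after their values were seen, were Cidea at 0.99 ± 0.22 (edgeR adjusted p = 0.0318) and Plin1 at 2.33 ± 0.53 (adjusted p = 0.0341). Ucp1, the brown fat marker, had 1 count in all 6 libraries together. The part of adipocytes and macrophages in the Ppargc1b values was not tested.

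The family has a further member, Pprc1, the PGC-1-related coactivator of growing cells, which lay the other way. It had 18.7, 22.9 and 25.0 CPM in the libraries labelled transgenic, against 34.2, 37.9 and 37.2 CPM in controls, with no overlap. Its log2 fold change was -0.71 ± 0.14 (edgeR adjusted p = 0.0603). Without control replicate 1 it passed at -0.76 ± 0.14 (edgeR adjusted p = 0.0225), in a fit that called 6.99% of all genes as lower. The coactivators Ppargc1a and Ppargc1b thus had higher values and Pprc1 lower values in the libraries labelled transgenic. Per gene length, the 3 coactivators together had 17.0, 9.89 and 10.7 FPKM in the libraries labelled transgenic, against 8.35, 8.05 and 9.53 FPKM in controls. These sums did not overlap, but they contain Ppargc1a, which did not overlap by itself. Ppargc1a alone had 13.0, 5.26 and 5.37 FPKM, against 2.425, 2.36 and 3.85 FPKM in controls. The ratio of Ppargc1a to Ppargc1b in FPKM did overlap, at 8.56, 3.30 and 2.65 in the libraries labelled transgenic and 1.72, 3.56 and 5.37 in controls.

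Among the estrogen-related receptors, orphan receptors through which PGC-1 acts on respiratory genes, Esrrg had the larger difference. Esrrg (ENSMUSG00000026610, chromosome 1, 187608791 to 188214885, plus strand) encodes ERRγ, a receptor of oxidative muscle and heart. It had 24.01, 10.6 and 14.9 CPM in the libraries labelled transgenic, against 10.3, 8.36 and 10.8 CPM in controls. Transgenic replicates 1 and 3 lay above all controls, and replicate 2 lay within their range, which gave a log2 fold change of 0.75 ± 0.29 (95% interval 0.07 to 1.43, edgeR adjusted p = 0.206), and 0.40 without transgenic replicate 1 (adjusted p = 0.421). Esrrb, a further receptor of the family that is no member of the 10, was at 0.65 ± 0.33 in log2 fold change (edgeR adjusted p = 0.307).

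Esrra (ENSMUSG00000024955, chromosome 19, 6910977 to 6921813, minus strand) encodes ERRα, a receptor that acts with PGC-1 on respiratory genes. It had 167, 99.1 and 87.0 CPM in the libraries labelled transgenic, against 82.6, 105 and 107 CPM in controls. Transgenic replicate 1 alone lay above the controls, and the other two lay within their range. The log2 fold change of 0.26 ± 0.25 (95% interval -0.32 to 0.84, edgeR adjusted p = 0.576) turned to -0.06 without that library. Exons of Esrra overlap those of Trmt112 on the opposite strand, which took 345 to 475 counts in the libraries labelled transgenic and 420 to 637 in controls. The sources used here give no strand setting for the counting, and the value of Esrra, with 2044 to 4045 counts in the libraries labelled transgenic and 1981 to 2322 in controls, is uncertain to that extent.

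Perm1 (ENSMUSG00000078486, chromosome 4, 156215868 to 156221307, plus strand), a muscle gene induced by PGC-1 and ERR, had the same form as Esrra. It had 161, 86.3 and 89.4 CPM in the libraries labelled transgenic, against 90.8, 71.4 and 97.5 CPM in controls. Only transgenic replicate 1 lay above the controls, and the log2 fold change was 0.38 ± 0.26 (95% interval -0.22 to 0.97, edgeR adjusted p = 0.436) and 0.04 without transgenic replicate 1 (adjusted p = 0.932).

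**Figure D2:**
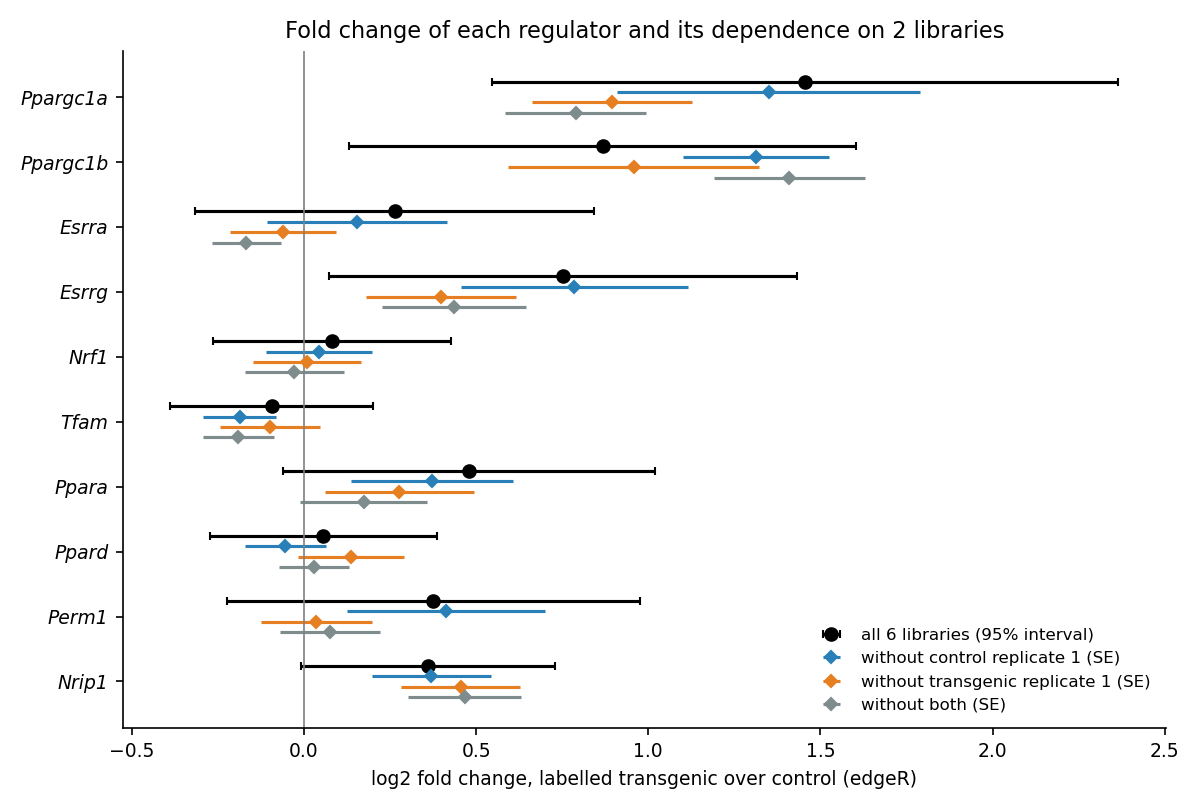
The axis gives the edgeR log2 fold change of each regulator, labelled transgenic over control, with 95% intervals for all 6 libraries and SEs for fits that leave out control replicate 1, transgenic replicate 1 or both. Ppargc1a is 0.89 and Perm1 0.04 without transgenic replicate 1, while Ppargc1b is 1.31 without control replicate 1.

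The fatty acid receptors differed in how far their groups lay apart. Ppara (ENSMUSG00000022383, chromosome 15, 85734983 to 85802819, plus strand), the PPAR of fasting and fat oxidation, had 14.4, 8.24 and 11.1 CPM in the libraries labelled transgenic, against 6.84, 8.55 and 8.85 CPM in controls. Transgenic replicates 1 and 3 lay above the controls and replicate 2 within their range, and the log2 fold change was 0.48 ± 0.23 (95% interval -0.06 to 1.02, edgeR adjusted p = 0.288). Without transgenic replicate 1 it was 0.28 ± 0.22 (adjusted p = 0.561). Ppard (ENSMUSG00000002250, chromosome 17, 28232700 to 28301474, plus strand), the PPAR that is most abundant in skeletal muscle, had 49.9995, 54.1 and 60.9 CPM in the libraries labelled transgenic, against 44.4, 57.9 and 56.4 CPM in controls. These ranges overlapped, with a log2 fold change of 0.06 ± 0.14 (95% interval -0.27 to 0.39, edgeR adjusted p = 0.852) that turned to -0.055 without control replicate 1. The ratio of Ppard to Ppara in FPKM was 1.77, 3.35 and 2.81 in the libraries labelled transgenic, against 3.32, 3.46 and 3.25 in controls, and only transgenic replicate 2 lay inside the control range.

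Nrf1 and Tfam had overlapping groups. Nrf1 (ENSMUSG00000058440, chromosome 6, 30047988 to 30153458, plus strand), which binds promoters of nuclear respiratory genes, had 20.8, 18.3 and 16.6 CPM in the libraries labelled transgenic, against 16.6, 19.8 and 16.2 CPM in controls. Its log2 fold change was 0.08 ± 0.15 (95% interval -0.26 to 0.43, edgeR adjusted p = 0.786). Tfam (ENSMUSG00000003923, chromosome 10, 71225464 to 71238280, minus strand) had 45.6, 42.8 and 44.3 CPM in the libraries labelled transgenic, against 40.8, 53.3 and 47.4 CPM in controls. All 3 libraries labelled transgenic lay inside the control range, with a log2 fold change of -0.09 ± 0.13 (95% interval -0.39 to 0.20, edgeR adjusted p = 0.705). Scaling by library totals alone, under which the median of all genes was 0.12 in place of -0.03, put Tfam at 0.07.

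Nrip1 (ENSMUSG00000048490, chromosome 16, 76287400 to 76373827, minus strand), the corepressor, had 45.3, 49.8 and 58.1 CPM in the libraries labelled transgenic, against 40.2, 33.0 and 46.0 CPM in controls. The groups overlapped only through transgenic replicate 1 and control replicate 3. The log2 fold change was 0.36 ± 0.16 (95% interval -0.01 to 0.73, edgeR adjusted p = 0.246), and unlike those of Esrra and Perm1 it was no smaller without transgenic replicate 1, at 0.46 (adjusted p = 0.277). The ratio of Ppargc1a to Nrip1 in FPKM was 3.32, 1.21 and 1.05 in the libraries labelled transgenic, against 0.695, 0.818 and 0.958 in controls. These ratios did not overlap, and neither did Ppargc1a by itself.

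Levels per gene length, in FPKM, spread widely between the regulators. In the libraries labelled transgenic Esrra stood highest at 46.2 ± 16.6 FPKM, followed by Perm1 at 28.7 ± 10.6, Tfam at 9.95 ± 0.279 and Ppargc1a at 7.87 ± 4.43 FPKM (SD, n = 3). The ranges of Esrra and Perm1 overlapped, and so did that of Ppargc1a, 5.26 to 13.0 FPKM, with those of Tfam and Ppard. Below them came Ppard, Nrip1, Ppara, Esrrg, Nrf1 and Ppargc1b, from 7.31 to 1.71 FPKM, and from Ppara downwards each overlapped its neighbour. In controls the first 3 stood in the same order, with Esrra at 38.6 ± 5.43, Perm1 at 22.1 ± 3.49 and Tfam at 10.6 ± 1.43 FPKM, and Ppard followed at 7.02 ± 1.004 FPKM. The ranges of these 4 did not overlap. Ppargc1a, at 2.88 ± 0.844 FPKM in controls, stood below Ppard and Nrip1 there, and its range overlapped that of Nrip1. Ppargc1b was lowest in both groups, at 1.71 ± 0.277 FPKM in the libraries labelled transgenic and 0.930 ± 0.418 FPKM in controls.

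**Figure D3:**
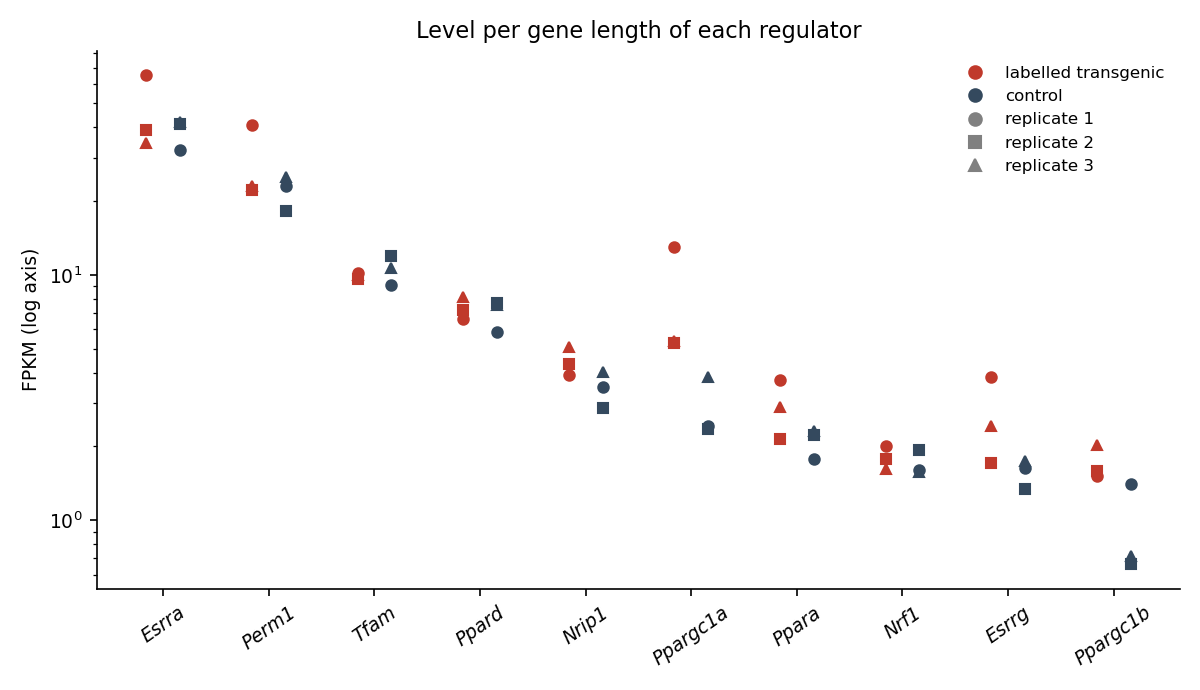
FPKM of each regulator on a log axis, ordered by the control mean, with libraries labelled transgenic in red left of controls in blue and marker shape giving the replicate number. Esrra and Perm1 stand highest in both groups, and Ppargc1a in transgenic replicate 1, at 13.0 FPKM, stands above Tfam in that library, at 10.2 FPKM.

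More regulators were highest in transgenic replicate 1 than in any other library, while 3 were highest in transgenic replicate 3 and 1 in control replicate 2. Of the 10 members 6 had their highest CPM in that library, where 21.1% of all genes tested had theirs. With each gene centred on its mean over the 6 libraries in log2 CPM, the median over the members was 0.47, -0.04 and 0.21 in transgenic replicates 1, 2 and 3, against -0.21, -0.28 and -0.03 in control replicates 1, 2 and 3. Transgenic replicate 2 lay just below control replicate 3, so the groups overlapped. The members chosen by name include several that are known to regulate each other, so this is no count of independent genes. Without both replicates 1, a fit chosen after the data were seen, Ppargc1a was 0.79 ± 0.20 (edgeR adjusted p = 0.0308) and Ppargc1b 1.41 ± 0.22 (adjusted p = 0.00623), and these 2 members passed as higher in a fit that called 10.5% of all genes as higher. In that fit Esrra was at -0.17, Perm1 at 0.07, Ppara at 0.17 and Esrrg at 0.44.

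The genes whose profile over the 6 libraries was most like that of Ppargc1a, by the root mean square difference in centred log2 CPM among 695 candidates of similar or larger spread, were Tmem25 (0.20), Loxl4 (0.21), Impa2 (0.22), Edn1 (0.25) and Angptl4 (0.26). Angptl4, the secreted inhibitor of lipoprotein lipase, had 196, 101 and 107 CPM in the libraries labelled transgenic, against 56.9, 58.4 and 62.9 CPM in controls. Those most like Perm1, among 4512 candidates, were Hmgb3, Spsb3, Btbd3, Ehd2 and Tspan2, with differences of 0.08 to 0.09. None of these 10 genes passed an adjusted p of 0.05.

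Partners of the regulators were counted from lists. None of the 9 coactivator partners passed in edgeR's test, and 4 of 9 had a positive log2 fold change, with a median of -0.06. The p160 coactivators Ncoa1 and Ncoa2, which bind ligand-bound nuclear receptors, had log2 fold changes of 0.51 ± 0.11 (edgeR adjusted p = 0.0799) and 0.35 ± 0.11 (adjusted p = 0.147). Ncoa1 had 42.8, 42.03 and 46.0 CPM in the libraries labelled transgenic, against 28.6, 30.2 and 33.2 CPM in controls, with no overlap. Without control replicate 1 Ncoa1 passed as higher at 0.46 ± 0.11 (edgeR adjusted p = 0.0390). Med1, a Mediator subunit, and Sirt1, a deacetylase of PGC-1α, both named after their values were seen, passed there as lower. The fit without control replicate 1 called 6.08% of all genes as higher and 6.99% as lower. The median of this list was 0.05 without transgenic replicate 1. Of the 7 corepressor partners none passed, and the smallest p-values were those of Ctbp2, a corepressor of the CtBP family, and of Nrip1. Ctbp2 had 14.1, 14.5 and 14.2 CPM in the libraries labelled transgenic, against 8.80, 9.55 and 9.77 CPM in controls, or 0.61 ± 0.13 in log2 fold change (edgeR adjusted p = 0.0779). Without control replicate 1 it passed at 0.56 ± 0.13 (adjusted p = 0.0354). Among the 6 PPAR and RXR genes none passed, with Ppara and the retinoid receptor Rxrb (-0.25 ± 0.14, adjusted p = 0.330) ranking first. Among Nrf1, Yy1 and the 3 GABP genes none passed, with Yy1 at -0.16 ± 0.10 and Gabpb1 at -0.20 ± 0.15. Of 12 genes acting upstream of Ppargc1a none passed, and 4 had a positive log2 fold change. Mstn, myostatin, the growth inhibitor of muscle, had 15.9, 21.6 and 25.0 CPM in the libraries labelled transgenic, against 36.1, 201 and 202 CPM in controls. Its log2 fold change was -2.81 ± 0.59 (adjusted p = 0.0721), and it passed without control replicate 1 at -3.28 ± 0.18 (adjusted p = 0.00115). Prkaa1, a catalytic subunit of AMPK, was at 0.27 ± 0.13 (adjusted p = 0.291).

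Target genes did not share one direction. Of 14 genes of mitochondrial DNA transcription and replication, Tfam among them, none passed, and all 14 had a negative log2 fold change with a median of -0.26, where 46.6% of all genes tested had a positive one. The median was -0.17 without transgenic replicate 1. Muscle markers lay the same way, with 2 of 12 positive and a median of -0.29, none of them past the threshold, and their part in the values of these 14 genes was not tested. Mterf3, a mitochondrial transcription termination factor family member, had 18.6, 16.3 and 18.1 CPM in the libraries labelled transgenic, against 18.8, 27.4 and 25.0 CPM in controls (-0.43 ± 0.17, edgeR adjusted p = 0.206). Ssbp1, the mitochondrial single-stranded DNA binding protein, had 22.6, 21.8 and 23.1 CPM, against 25.1, 31.5 and 26.8 CPM in controls (-0.31 ± 0.13, adjusted p = 0.232). Without control replicate 1 Mterf3 and Tefm, an elongation factor of mitochondrial transcription named after its value was seen, passed as lower. In that fit 6.99% of all genes were lower.

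Of 25 PPAR targets none passed, 19 had a positive log2 fold change, and the median was 0.18. Angptl4 was at 1.18 ± 0.25 (edgeR adjusted p = 0.0755) and Plin2, a lipid droplet coat, at 0.46 ± 0.17 (adjusted p = 0.192). Without transgenic replicate 1 the number positive was 11 of 25 with a median of -0.03, and without control replicate 1 it was 17 with a median of 0.10. In the fit without control replicate 1 these 2 genes passed as higher, Angptl4 at 1.149 ± 0.29 (edgeR adjusted p = 0.0433) and Plin2 at 0.63 ± 0.14 (adjusted p = 0.0297), where 6.08% of all genes were higher. Of 25 ERR and PGC-1 targets none passed, 8 had a positive log2 fold change, and the median was -0.09. Without transgenic replicate 1 the number positive was 2 of 25 with a median of -0.35, and without control replicate 1 it was 3 with a median of -0.17. Cox6a2, a muscle subunit of cytochrome oxidase, was at -0.65 ± 0.18 (edgeR adjusted p = 0.119). It had 476, 355 and 347 CPM in the libraries labelled transgenic, against 530, 692 and 630 CPM in controls. Without control replicate 1 it passed as lower (edgeR adjusted p = 0.0328), where 6.99% of all genes were lower. Vegfa, the angiogenic factor that PGC-1α induces in muscle, lay the other way at 0.62 ± 0.23 (adjusted p = 0.187), with 284, 171 and 170 CPM against 160, 126 and 121 CPM in controls. The list holds Hk2, which is also named in the transgene. Without both replicates 1, the fit added after the data were seen, 18 of the 25 passed as lower and 1 as higher. In that fit 11.4% of all genes were lower and 10.5% higher. Of the 12 muscle markers 4 passed there as lower and 1 was positive, with a median of -0.32. The part of muscle markers in the values of these targets was not tested.

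Of 15 genes of mitochondrial import, fusion and fission none passed and 2 had a positive log2 fold change, with a median of -0.21. The median was -0.32 without control replicate 1 and -0.33 without transgenic replicate 1. Without both replicates 1, the fit added after the data were seen, 10 of 15 passed as lower, where 11.4% of all genes were lower. Of the 12 muscle markers 4 passed as lower in that fit, and their part in the values of these 15 genes was not tested. Fis1, a mitochondrial fission factor of the outer membrane, was at -0.36 ± 0.12 (edgeR adjusted p = 0.166), and Tomm22, an import receptor, at -0.33 ± 0.13 (adjusted p = 0.216). Without control replicate 1 Fis1 passed as lower at -0.43 ± 0.11 (edgeR adjusted p = 0.0492), where 6.99% of all genes were lower. Of the 6 markers of fibro-adipogenic progenitors none passed and 5 were positive. Their sums were 725 to 858 CPM in the libraries labelled transgenic and 435 to 662 CPM in controls, with no overlap. Without control replicate 1 their median was 0.65 and 3 passed as higher, where 6.08% of all genes were higher. Without both replicates 1 there were 4 that passed, where 10.5% of all genes were higher. Of 10 slow oxidative fibre genes none passed and 1 had a positive log2 fold change, with Myl3 at -0.52 ± 0.24 and Tnnt1 at -0.38 ± 0.23. Of 10 fast fibre genes none passed and 3 were positive, with Tnni2 at -0.44 ± 0.35 and Tnnt3 at -0.58 ± 0.48. In the libraries labelled transgenic the 25 ERR and PGC-1 targets split, with a median centred log2 CPM of 0.40 in replicate 1, above every control library, and -0.32 and -0.28 in replicates 2 and 3, below every control library, where controls lay between -0.12 and 0.19. Ppargc1a was higher than every control library in all 3 of these libraries.

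**Figure D4:**
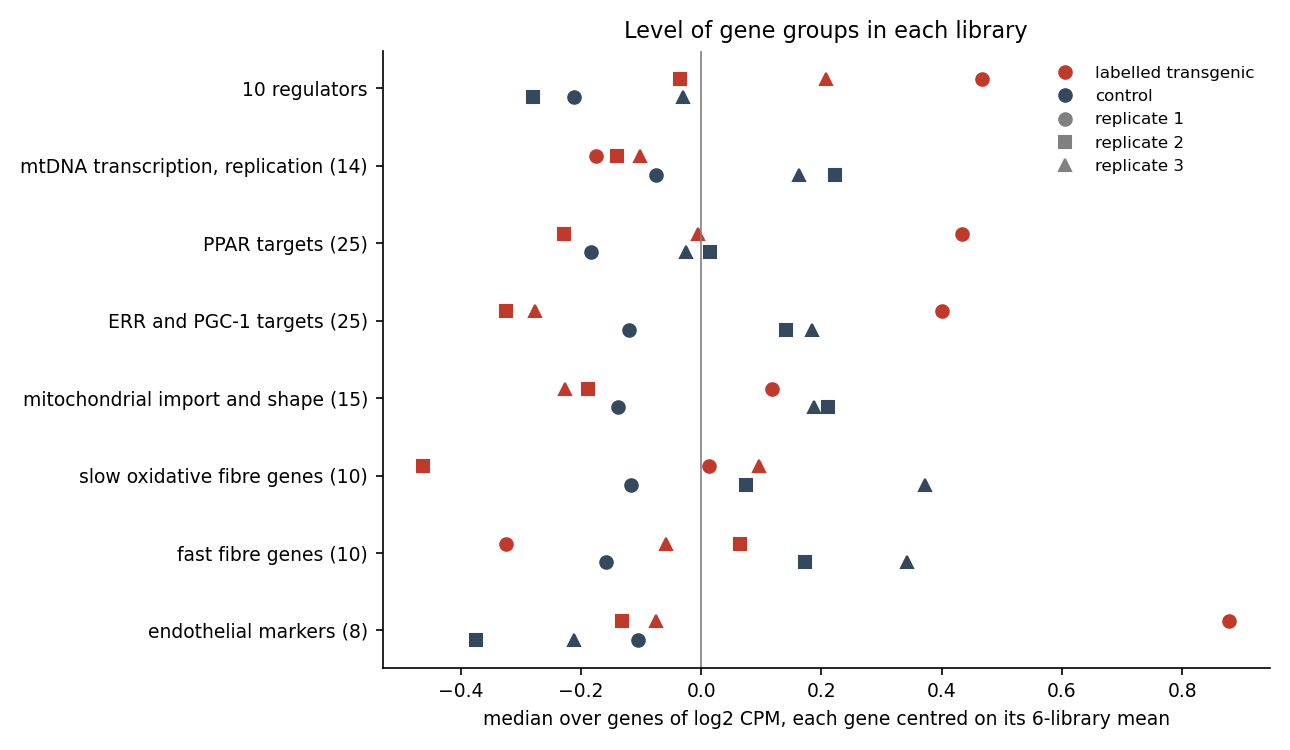
For each gene group, with the number of tested genes in brackets, the axis gives the median over its genes of log2 CPM centred on each gene's mean over the 6 libraries, libraries labelled transgenic in red above controls in blue. The ERR and PGC-1 targets of transgenic replicate 1 stand at 0.40 and those of replicates 2 and 3 at -0.32 and -0.28, while the 14 genes of mitochondrial DNA transcription and replication lie at -0.18 to -0.10 in the libraries labelled transgenic and -0.07 to 0.22 in controls.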

How the data were processed

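Counts and FPKM were deposited for 6 libraries, 3 labelled transgenic and 3 control, grouped by sample title. Per the labels' protocols, NEBNext Ultra libraries were made from 3 µg of RNA each. The submitters' processing notes name HISAT2 2.0.5, featureCounts 1.5.0-p3 and GRCm38, without a strand setting or annotation release. Counts, as deposited, are whole reads for each Ensembl gene. FPKM, as deposited, equals the count over gene length and over a scaled library size. No label states that each library is a different animal; the p-values rest on the spread among these libraries, which may be technical.

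All 14973 genes kept by filterByExpr were fitted in edgeR 4.0.16 (R 4.3.3) with TMM scaling and the quasi-likelihood test (legacy = FALSE), two-sided, with Benjamini-Hochberg adjustment over all genes at 0.05. Each SE is the absolute log2 fold change over the root of the F statistic. Log2 CPM used a prior count of 2. A count of 3 is 0.120 to 0.145 CPM, and the precision given by depth covers counting error only. Alternatives used DESeq2 1.42.0, limma 3.58.1, other scalings and filters, log2(FPKM + 1) and log2(FPKM + 0.1), fits without each library and a replicate block. The fit was tested on simulated data. Members, 19 gene lists and tests were chosen with earlier results of these data known. All members are named; of each list, up to 4 genes past the threshold or, where none passed, the 2 with the smallest p; others are marked where they appear. The genes most like a member were protein-coding, with a mean of at least 2 CPM and an SD of at least 0.75 times the member's. Protein comparisons that had been planned were not made, and the promoter of Ppargc1b was not used here. A gene of the lists is not reported here.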

Additional observations from a re-analysis of the deposited data

How the results depend on the processing

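With edgeR 194 of all genes tested were past the adjusted threshold. The count was 124 with no filter, 112 and 121 with limma on log2(FPKM + 1) and log2(FPKM + 0.1), 1065 with DESeq2, 5 with the replicate block, 0 to 1956 when single libraries were left out (0 without control replicate 3, 1956 without control replicate 1) and 3269 without both replicates 1. Of the 10 regulators 0 passed, against 1 with DESeq2 (Ppargc1a), 0 to 1 without single libraries (Ppargc1b, without control replicate 1) and 2 without both replicates 1. The lists hold 184 genes, not all of which were kept by the filter. Of these genes 0 passed, against 2 when scaled by library totals and 11 with DESeq2, which called 7.11% of all genes. There were 0 to 24 without single libraries and 70 without both replicates 1. The fit without both replicates 1 called 10.5% of all genes as higher and 11.4% as lower. In all 17 fits the log2 fold change was positive for Ppargc1a (0.79 to 1.72), Ppargc1b (0.51 to 1.41), Esrrg (0.40 to 0.99), Ppara (0.17 to 0.66), Perm1 (0.04 to 0.53) and Nrip1 (0.24 to 0.51). The other 4 turned direction in at least 1 fit, and the cause was not tested. Tfam was at 0.066 when scaled by library totals alone, and without single libraries it ran from -0.19 to 0.0028. Over the same omissions Esrra ran from -0.06 to 0.44 and Ppard from -0.055 to 0.14. Without both replicates 1 Esrra was at -0.17 and Nrf1 at -0.028, and Nrf1 ran up to 0.18 when single libraries were left out. Replicate numbers gave no sign of a pairing of the samples: same-numbered libraries had correlations of -0.02, -0.17 and 0.16 between their deviations from the group means. With 3 libraries per group these values cannot exclude a pairing. The replicate block changed no call among the regulators. Ppargc1b, with 56 to 201 counts, is the regulator most limited by depth.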
